A study of Drosophila melanogaster with 24 samples.

Results

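The chemosensory receptor genes of Drosophila melanogaster were read across adult gonads. The members are the 181 genes, of 15406 in the count files, whose FlyBase symbol is Or, Gr or Ir followed by digits and a letter: 60 odorant receptor, 58 gustatory receptor and 63 ionotropic receptor genes. Of 186 such symbols in the reference gene table, Gr22c, Gr2a, Ir47b, Ir56e and Ir60f were not analysed here. The study measured poly(A) RNA by sequencing while the sex determination pathway was changed in adults, with 24 libraries in 12 groups of 2 separately dissected samples. TraF testes came from XY flies of genotype y1 w*; P{UAS-Tra.F}20J7; P{tubP-GAL80ts}7/P{tubP-GAL4}LL7, in which warmth releases a ubiquitous driver of the female form of transformer; Control testes carried P{tubP-GAL80ts}7/P{tubP-GAL4}LL7 without the UAS element. Ovaries came from XX flies of genotype w1118; tra2[ts2]/tra2[ts1], which lose transformer 2 activity in the warm, and from w1118 flies; egg chambers of late stages had been discarded. All flies were raised at 18 °C, aged 5 days, and sampled at 0, 12 and 24 h after the shift to 29 °C (the extraction notes for testes give 30 °C). The label of the Control testes does not give the y1 w* part, so the X chromosome of the TraF and Control stocks may differ in origin.

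Odorant receptors are membrane proteins that form odour-gated cation channels together with the shared subunit Orco. Gustatory receptors, a related family, detect sugars, bitter compounds and, in a pair of members, carbon dioxide. Ionotropic receptors descend from ionotropic glutamate receptors and pair a tuned subunit with a broadly used co-receptor such as Ir8a, Ir25a, Ir76b or Ir93a. All 3 families are known from sensory neurons of antenna, proboscis, leg and larval head, and in mosquitoes odorant receptors have also been described in sperm.

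Each library held 16136939 to 32782474 counts assigned to genes. Levels are in CPM (counts relative to the library total), scaled within each tissue by the trimmed mean of M values (TMM), so that a difference in level between testis and ovary also depends on how the tissues are scaled to each other. The tra gene had 19.9 and 22.9 CPM at 0 h, 242 and 217 CPM at 12 h and 238 and 285 CPM at 24 h in TraF testes, against 5.38 to 10.9 CPM in the 6 Control testes, so the testis libraries match their labels, and tra was already above Control at 0 h. Summed markers of the male germline (10 genes) lay at 6202 to 9507 CPM in testes and at 0.0757 to 0.462 CPM in ovaries. Those of female somatic cells (8 genes) lay at 14.6 to 20.6 CPM in testes and 22140 to 48030 CPM in ovaries. Other lists separated the tissues less. Female germline markers (6 genes) summed to 522 to 935 CPM in testes and 1242 to 3233 CPM in ovaries. Genes listed for male somatic cells (8 genes) were lower in testes (153 to 230 CPM) than in ovaries (532 to 800 CPM). The first Control testis library at 12 h stands apart, with 2586 CPM of 8 summed accessory gland markers, against at most 13.2 CPM in any other library. In such bulk samples, fewer cells of a type and less RNA per cell cannot be told apart.

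More members were read in testis than in ovary, and in both tissues a smaller share than of all genes. A gene was called on where both libraries of at least 1 group held 1 CPM or more. In testis 45 members (24.9%) were on, against 71.6% of all genes, a further 130 gave some counts, and 6 gave none. In ovary 4 members (2.21%) were on, against 50.6% of all genes, 98 gave some counts and 79 gave none. At 0 counts over the 12 libraries of a tissue, a level of up to 0.0105 CPM in testis and 0.0102 CPM in ovary is allowed by counting error alone. By family, 18 of 63 ionotropic receptors (28.6%), 16 of 58 gustatory receptors (27.6%) and 11 of 60 odorant receptors (18.3%) were on in testis. The 4 members on in ovary were Ir7c, Ir76a, Or43b and Gr61a, and all 4 were also on in testis. So 41 members were on in testis and not in ovary, none the other way round, and 136 in neither. The matching split of all genes is not given here, and all genes too were more often on in testis (71.6%) than in ovary (50.6%). The 33 members on in testis outside the 12 with the highest means had means over the 12 testes of 0.748 to 3.53 CPM. Of the 45, 25 were on in all 6 testis groups, and of the 4, Gr61a, Ir7c and Or43b were on in all 6 ovary groups. The counts by group were 33, 36 and 35 in TraF testes at 0, 12 and 24 h, 36, 31 and 35 in Control testes, 4 at every time in tra2ts ovaries and 3 at every time in w1118 ovaries. At the edge of the threshold, Or65c (1.02 CPM in the lower library of its highest group) and Ir52c (1.03 CPM) were just inside in testis and Gr23a (0.977 CPM) and Gr47a (0.947 CPM) just outside; in ovary Gr61a (2.54 CPM) was inside and Ir7b (0.962 CPM) and Ir40a (0.927 CPM) outside.

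**Figure D1:**
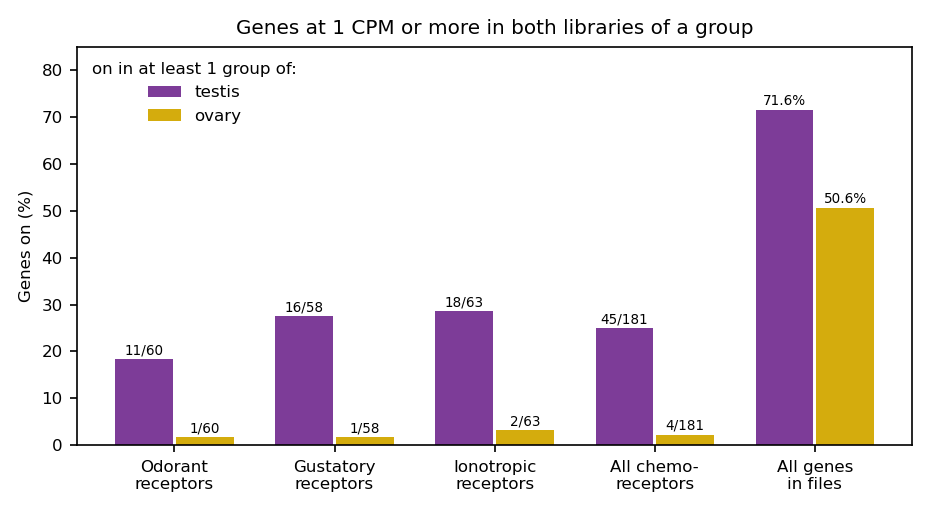
Share of genes on in testis and in ovary, in percent (bars), for each receptor family, all 181 members and all 15406 genes, with the numbers of members above the bars. In testis 24.9% of the members were on against 71.6% of all genes, and in ovary 2.21% against 50.6%.

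No count in any of the 24 libraries was given by 5 members, Gr57a, Gr64b, Gr64c, Or46a and Or83a. Of these, Gr64b and Gr64c overlap each other fully. Or83a lies wholly under CG1172 and Or46a wholly under asRNA:CR43467, each on the other strand. Gr10a, on in testis, overlaps Or10a over all of its exons on the same strand. How reads of overlapping genes were counted is not given in the sources used here. The members on in testis lay on every chromosome arm: 9 of 30 on 2L (30.0%, against 71.7% of all genes of that arm), 12 of 49 on 2R (24.5%, against 68.7%), 12 of 35 on 3L (34.3%, against 70.7%), 9 of 43 on 3R (20.9%, against 72.7%) and 3 of 24 on X (12.5%, against 76.3%). Of 58 pairs of members that adjoin each other in the annotation, both were on in testis in 4 pairs (Gr59e with Gr59f, Ir51a with Ir51b, Ir75a with Ir75b, and Ir94d with Ir94e), 1 was on in 15 pairs and neither in 39.

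Added together, the members made up 146 to 178 CPM of a testis library (median 156) and 40.9 to 91.2 CPM of an ovary library (median 58.6). Most of the ovary sum was 1 gene: without Ir7c it was 15.5 to 28.6 CPM. Summed levels of 11 neuron markers were 59.2 to 97.0 CPM in testes and 4.76 to 10.6 CPM in ovaries. None of the 11 was at 0 over all testis libraries. In testes brp, a protein of synaptic active zones (19.2 to 47.7 CPM), and nSyb (10.7 to 28.0 CPM) had the highest medians of them. The marker elav did not share the difference, with 1.58 to 3.01 CPM in testes and 0.809 to 3.985 CPM in ovaries. The part of neurons in the members' levels was not tested.

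Among the ionotropic co-receptors, Ir25a, the most broadly used of them, gave the most reads in testis. It had 5.60, 6.65 and 7.14 CPM (lowest, median, highest) in the 6 TraF testes and 5.35, 6.47 and 7.58 CPM in the 6 Control testes, and at most 0.607 CPM in any ovary. These ranges overlap and no genotype difference was called. Ir76b, which serves amine, salt and amino acid sensing, had 1.35, 2.10 and 3.09 CPM in TraF and 1.86, 3.41 and 4.88 CPM in Control testes. Ir93a, the co-receptor of cooling and humidity cells, had 1.56, 2.15 and 2.95 CPM in TraF testes, 2.15, 3.09 and 3.77 CPM in Control testes, 0.338 to 0.990 CPM in tra2ts ovaries and 0.280 to 0.831 CPM in w1118 ovaries. Ir8a, the co-receptor of acid-sensing neurons, was not on: it stayed at or below 0.209 CPM in TraF testes, 0.275 CPM in Control testes and 0.0483 CPM in ovaries. So 3 of the 4 co-receptors were on in testis and none in ovary.

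Of 17 antennal ionotropic receptors, 8 were on in testis and 1, Ir76a, in ovary. Ir76a, an amine receptor of the antenna that works with Ir25a and Ir76b, had 5.79, 8.11 and 8.91 CPM in TraF and 7.67, 8.15 and 8.85 CPM in Control testes. A share of 14.1% of the Ir76a exons overlaps CG14102 on the other strand, which had 5.02 to 10.7 CPM in ovaries. Ir41a, a polyamine receptor, had 6.53, 7.74 and 8.38 CPM in TraF and 5.23, 6.22 and 7.01 CPM in Control testes, and at most 0.139 CPM in ovaries. Ir100a, outside that list, had 5.48, 7.64 and 9.58 CPM in TraF and 6.51, 9.38 and 12.5 CPM in Control testes; it lies in an intron of CG42233. Ir7c, a subunit of high-salt taste that acts with Ir25a and Ir76b, had 0 to 13.0 CPM over the 12 testes and 21.6 to 71.6 CPM over the 12 ovaries.

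Of the odorant receptors, Or45b, Or43b and Or94a gave the most reads over the 12 testes together, with means of 5.62, 5.07 and 4.31 CPM. Or45b, known from larval olfactory neurons, had 2.35 to 6.92 CPM in TraF and 4.83 to 8.47 CPM in Control testes; its transcript lies wholly under an annotated antisense RNA, and without a known strand setting their reads cannot be told apart. Or43b, an antennal receptor of fruit esters, was the 1 odorant receptor on in ovary as well, with a mean of 8.17 CPM; a share of 40.7% of its exons overlaps Cul1 on the other strand. Orco, the shared subunit and no member by the naming rule, had 2.97 to 5.20 CPM in TraF testes and 3.33 to 8.29 CPM in Control testes, and 0 counts in all 12 ovaries. Or43b was therefore read in ovaries in which Orco gave no count.

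Of the gustatory receptors, Gr32a, a receptor of bitter compounds and of male pheromones in the leg, gave the most reads of all members in TraF testes and ranked 4th in Control testes after Ir7c, Gr22f and Ir100a, with 7.14, 9.11 and 10.1 CPM in TraF and 7.54, 9.01 and 11.5 CPM in Control testes. Gr64f, a co-receptor of sugar sensing, had 3.62 to 4.65 CPM in TraF and 3.90 to 5.08 CPM in Control testes. Gr43a, the fructose receptor, had 2.42 to 4.55 CPM in TraF and 2.59 to 6.15 CPM in Control testes. Of 9 sugar receptors 5 were on in testis and 1 in ovary, that 1 being Gr61a, at 1.64 to 3.40 CPM in tra2ts and 1.86 to 3.10 CPM in w1118 ovaries. Of the carbon dioxide pair, Gr63a had 0.737 to 2.10 CPM in TraF and 0.948 to 1.18 CPM in Control testes and was on, whereas Gr21a had 0.196 to 0.599 CPM in TraF and 0.339 to 1.04 CPM in Control testes and was not. Of 9 pheromone receptors 3 were on in testis and none in ovary, and of 6 core bitter receptors 2 and none.

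Levels were compared between genes per kilobase of exon, with lengths from a later annotation, within each genotype. In TraF testes Gr32a came first with a mean of 5.56 CPM per kb, followed by Or45b with 4.22 and Ir100a with 4.09, and Gr22f ranked 14th with 2.31. In Control testes Gr22f came first with 9.17 CPM per kb, followed by Gr32a with 5.73, Ir100a with 5.31, Or45b with 5.22 and Ir7c with 4.78. The ranges of Gr32a, Or45b and Ir100a over libraries overlap in each genotype, and so do those of Gr22f and Gr32a in Control testes. Ir25a, a long transcript, had 1.82 CPM per kb in TraF and 1.78 in Control testes. In ovaries Ir7c came first with 16.7 CPM per kb in tra2ts and 19.6 in w1118 ovaries, and Or43b next with 5.66 in tra2ts and 5.91 in w1118 ovaries. Ir76a had 1.37 CPM per kb in tra2ts ovaries, beside 1.26 for Gr61a and 0.554 for Ir7b there, and 0.0879 in w1118 ovaries, below 1.36 for Gr61a and 0.494 for Ir7b.

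**Figure D2:**
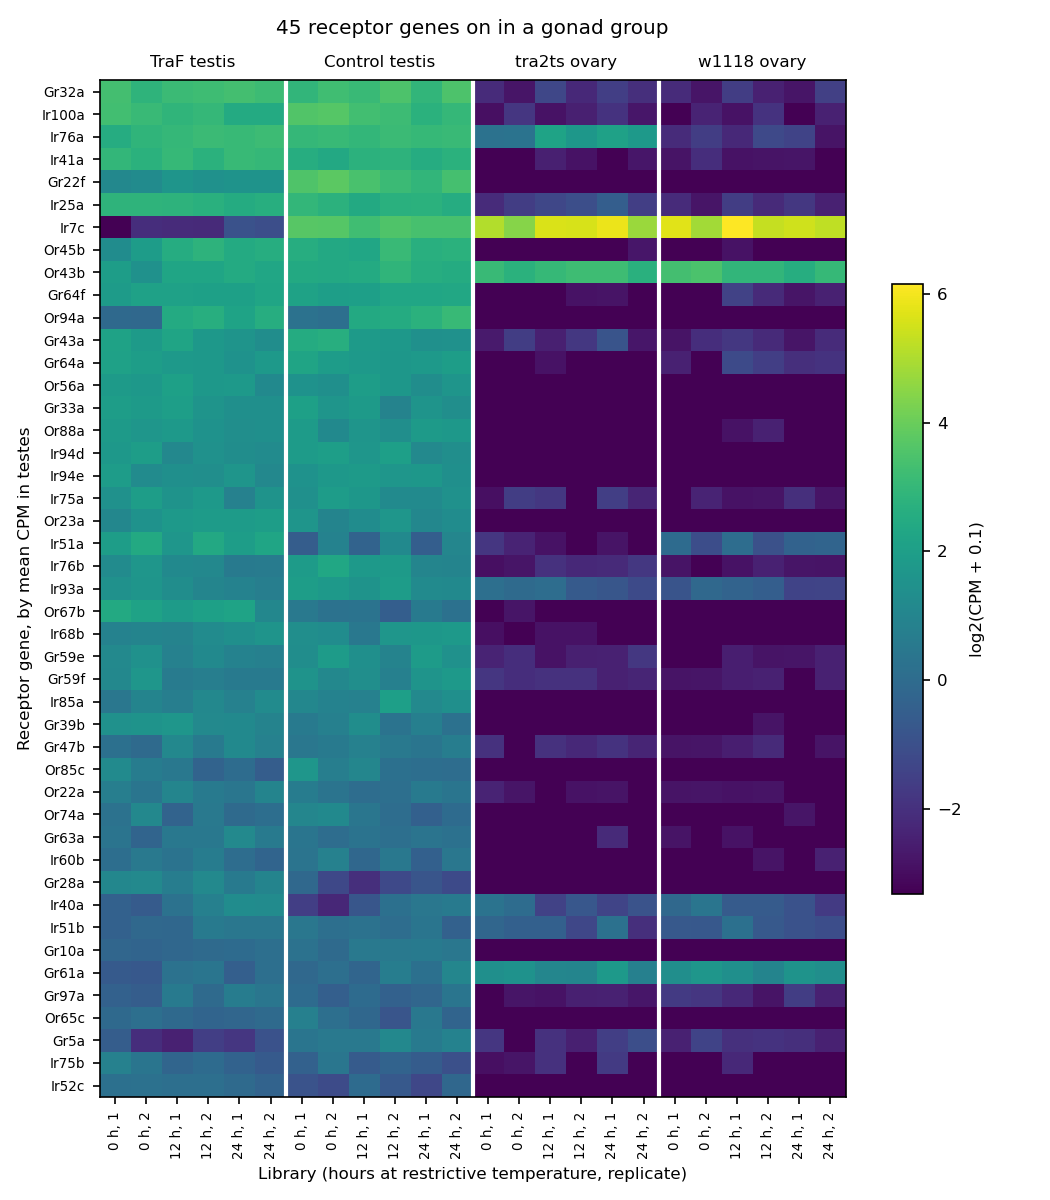
Level of each member on in testis or ovary in every library, as log2(CPM + 0.1) shown by colour, with libraries as columns grouped by genotype and hours and genes as rows in the order of their mean in testes. Most rows are dark in the ovary columns; Ir7c is the row that is high in ovaries and Control testes and near 0 in TraF testes.

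Testis was compared with ovary in the control genotypes, 6 Control testes against 6 w1118 ovaries, with edgeR's quasi-likelihood test and Benjamini-Hochberg adjustment over 12411 genes. Tissue, sex and stock differ together here, and by the extraction notes so may the shift temperature, so these cannot be told apart. Among the 81 members tested, 71 were higher and 3 lower in testis, beside 54% and 35.8% of all tested genes (89.8% in either direction); since most of the 81 passed the low-count filter through the testis libraries alone, the number higher carries no weight. The lower genes were Ir7c, at -1.75 on the log2 scale (SE 0.226, BH-adjusted p = 9.54e-07), Ir7b with -1.13 (SE 0.338, adjusted p = 0.00456) and the sugar receptor Gr61a with -0.86 (SE 0.242, adjusted p = 0.0031). By DESeq2 Ir7b (adjusted p = 0.0538) and Gr61a (0.0524) missed the threshold. Or43b did not pass (log2 fold change -0.24, adjusted p = 0.134), and its sign turned under the relative log expression scaling (0.08).

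The widest differences were of genes with almost no ovary reads. Gr22f had 1471 counts in Control testes and 0 in w1118 ovaries, and was at least 606-fold higher in testis against a floor of 3 counts over the 6 ovary libraries. On the same floor Or94a (607 counts against 0), Ir94d (449 against 0) and Ir94e (426 against 0) were at least 250-fold, 185-fold and 176-fold higher. Or45b had 858 counts against 1, a ratio of 1060 with an exact 95% interval for counting error of 190 to 41920. Of the co-receptors, Ir25a had 904 counts in Control testes against 19 in w1118 ovaries, Ir76b 457 against 6 and Ir93a 425 against 76. Ir8a had 29 counts against 3, a ratio of 11.9 (exact 95% interval for counting error 3.70 to 61.3).

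Receptor levels in testes with and without the transgene for the female form of transformer were compared in 6 TraF against 6 Control testes over all times, the 0 h libraries before the shift included. Of 79 tested members, 11 (13.9%) were called by edgeR's quasi-likelihood test, against 5.36% of all 12083 tested genes; 5 of them were higher and 6 lower, beside 2.3% and 3.06% of all tested genes. Of the 79, 24 had an unadjusted p under 0.05, beside 2131 of the 12083 genes. DESeq2 called 9 members, a count given without its share over all genes. The median log2 fold change was -0.08 over the members and -0.01 over all genes tested. The 11 were 6 ionotropic, 3 gustatory and 2 odorant receptors on 5 chromosome arms (Ir7c and Gr5a on X, Gr22f, Gr28a, Ir40a and Or22b on 2L, Ir51a and Ir54a on 2R, Or67b and Ir76b on 3L, Ir100a on 3R). No tested gene next to, overlapping or around a called member was itself called in this comparison.

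Ir7c, the high-salt subunit, differed most. It had 0 and 0.138 CPM at 0 h, 0.125 and 0.117 CPM at 12 h and 0.419 and 0.391 CPM at 24 h in TraF testes, against 13.0 and 12.7 CPM, 9.52 and 11.7 CPM, and 10.4 and 10.4 CPM at the same times in Control testes. The lowest Control library lies far above the highest TraF library. The log2 fold change over all times was -6.11 (SE 0.211, edgeR quasi-likelihood adjusted p = 7.66e-08), from 33 counts in TraF and 1592 in Control testes. It was called at 0 h with -7.27 (SE 0.412, adjusted p = 1.48e-05), at 12 h with -6.40 (SE 0.372, adjusted p = 1.97e-05) and at 24 h with -4.66 (SE 0.306, adjusted p = 6.94e-05). At 0 h the 3 TraF counts against 691 make Control 164 times higher (exact 95% interval for counting error 55.8 to 795), at 12 h 6 against 448 make it 87.6 times, and at 24 h 24 against 453 make it 25.6 times. The difference was thus present before the shift to 29 °C. Its neighbours in the annotation were asRNA:CR43615, at 0.301 to 1.51 CPM in testes and not called (log2 fold change -0.92, adjusted p = 0.0685), and Ir7d, at 0 to 0.169 CPM. Since the stocks differ by the UAS element and may differ in the X chromosome, a difference of stock and an effect of the transgene cannot be told apart for Ir7c or for the other 10 members called.

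Gr22f, a gustatory receptor with 0 counts in all 12 ovaries, was the other member called at every time. TraF testes had 2.05 and 2.30 CPM at 0 h, 3.01 and 2.70 CPM at 12 h and 2.82 and 2.85 CPM at 24 h, against 11.5 and 13.7 CPM, 10.9 and 8.76 CPM, and 7.47 and 10.3 CPM in Control testes. All TraF libraries lay below all Control libraries. The log2 fold change was -1.98 over all times (SE 0.124, edgeR quasi-likelihood adjusted p = 6.54e-06), -2.53 at 0 h (SE 0.222, adjusted p = 0.000555), -1.78 at 12 h (SE 0.213, adjusted p = 0.0027) and -1.64 at 24 h (SE 0.211, adjusted p = 0.00366). The call at 12 h was lost without the second TraF library (adjusted p = 0.0561) and in a fit of the compared groups alone (0.0758), and the call at 24 h without the first TraF library (0.0704).

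Gr5a, the trehalose receptor, was also lower in TraF testes, with 0.0835, 0.207 and 0.603 CPM (lowest, median, highest) against 1.18, 1.36 and 2.04 CPM in Control testes. The 2 ranges do not meet. On the log2 scale it changed by -2.52 (SE 0.351, edgeR quasi-likelihood adjusted p = 0.00146); an antisense RNA covers 74.4% of its exons, and like Ir7c it lies on X. Gr28a, which takes part in larval sensing of ribonucleosides, went the other way, with 1.35, 1.91 and 2.12 CPM in TraF and 0.142, 0.335 and 0.825 CPM in Control testes. On the log2 scale it changed by 2.23 (SE 0.281, adjusted p = 0.000745). Or67b, an odorant receptor of antenna and larva, had 1.99, 4.21 and 5.37 CPM in TraF and 0.615, 1.11 and 1.39 CPM in Control testes, 1.84 on the log2 scale (SE 0.234, BH-adjusted p = 0.000802). A share of 9.2% of the Or67b exons overlaps Cyp40 on the other strand, which had 94.8 to 229 CPM in testes. In Gr28a and Or67b too the lowest TraF library lay above the highest Control library, and the calls of Ir7c, Gr22f, Gr28a, Or67b and Gr5a over all times held under every alternative run, the omission of each library included.

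**Figure D3:**
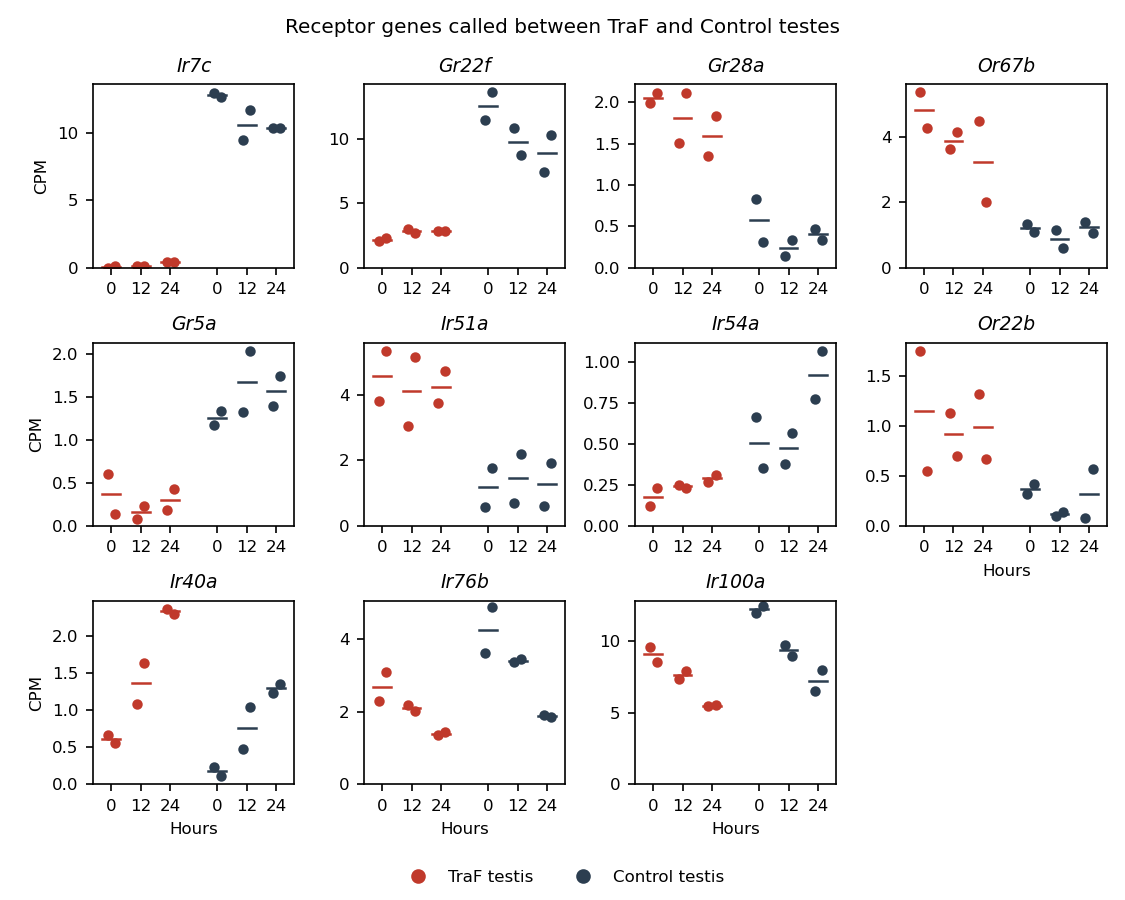
CPM of the 11 called members in each testis library on linear axes from 0, TraF left of Control, with points for the 2 libraries at 0, 12 and 24 h and bars at their mean. Ir7c separates most, at 0 to 0.419 CPM in TraF against 9.52 to 13.0 CPM in Control testes; Gr28a and Or67b lie higher in every TraF library than in any Control library.

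The other 6 members called over all times were less firm. Of these, Ir54a has 26.6% of its exons under sub on the other strand, which had 74.0 to 103 CPM in testes. Without a known strand setting the part of sub reads in the Ir54a level cannot be told. Ir51a, annotated as a pseudogene, had 3.05, 4.26 and 5.34 CPM in TraF and 0.589, 1.23 and 2.18 CPM in Control testes, with no overlap; on the log2 scale it changed by 1.75 (SE 0.356, edgeR quasi-likelihood adjusted p = 0.0152), lost without the second TraF library at 12 h (0.0531). In Control testes the libraries numbered 2 had 1.76, 2.18 and 1.92 CPM at 0, 12 and 24 h and those numbered 1 had 0.589, 0.711 and 0.620 CPM; with the replicate number as a block Ir51a was also called at 0 h (adjusted p = 0.028) and 24 h (0.0416). Or22b, a receptor of fruit esters and a near copy of its neighbour Or22a, between which the counting could split reads (Or22a changed by 0.35, adjusted p = 0.369), had 0.553, 0.915 and 1.75 CPM in TraF and 0.0775, 0.228 and 0.565 CPM in Control testes, with 1 overlapping value. Its rise by 2.08 on the log2 scale (SE 0.459, BH-adjusted p = 0.0233) was lost without the first TraF library at 0 h (0.0736), 12 h (0.0729) or 24 h (0.072), or without the first (0.0667) or second (0.0563) Control library at 0 h. Ir54a had 0.121, 0.242 and 0.313 CPM in TraF and 0.351, 0.618 and 1.07 CPM in Control testes, not overlapping, with -1.35 (SE 0.286, adjusted p = 0.0192); the call was lost by DESeq2 (0.0561), without the first TraF library at 0 h (0.0587), 12 h (0.054) or 24 h (0.06), the second TraF library at 12 h (0.0587), the first Control library at 0 h (0.0583) or the second at 24 h (0.0522).

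Ir40a, a receptor of dry air that acts with Ir93a and Ir25a, had 0.553, 1.36 and 2.37 CPM in TraF and 0.105, 0.758 and 1.36 CPM in Control testes over all times, ranges that overlap; in both genotypes the values at 24 h were the highest. The log2 fold change was 1.17 (SE 0.26, edgeR quasi-likelihood adjusted p = 0.0238). It held without the first TraF library at 12 h, the first Control library at 0 h or either Control library at 12 h, and was lost without any other single library (0.0503 to 0.0848). The co-receptor Ir76b fell by 0.59 on the log2 scale (SE 0.144, adjusted p = 0.0374) and Ir100a fell by 0.37 (SE 0.0909, adjusted p = 0.038) in TraF testes. Both overlapped between genotypes over all times. Ir76b kept its call only without the first Control library at 0 h, the second TraF library at 0 h or the second Control library at 12 h (without any other, 0.0549 to 0.115; by DESeq2 0.0521), and Ir100a only without the second Control library at 12 h or the first at 24 h (without any other, 0.0658 to 0.122). Or43b came next and was not called (log2 fold change -0.43, adjusted p = 0.0726). Without the first Control library at 12 h, which stands apart in accessory gland markers, Or43b (-0.49) and Gr39b (0.85) were called. Without the second Control library at 24 h Ir52c was called (1.08).

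Within single times fewer members passed. At 0 h 3 members were called, against 1.08% of all tested genes: Ir7c, Gr22f and Or67b. Or67b had 5.37 and 4.28 CPM in TraF and 1.34 and 1.09 CPM in Control testes at 0 h, a log2 fold change of 1.99 (SE 0.398, edgeR quasi-likelihood adjusted p = 0.0426) that was lost without any 1 of the 4 libraries (0.139 to 0.322). At 12 h 5 were called, against 1.05% of all tested genes, adding Gr28a with 2.90 (SE 0.523, adjusted p = 0.0252), Gr5a with -3.35 (SE 0.641, adjusted p = 0.034) and again Or67b with 2.14 (SE 0.419, adjusted p = 0.0396). In the fit of the compared groups alone all 3 lost the call (0.131, 0.119 and 0.133), and Gr5a lost it without a count filter (0.0518). Without single libraries of 12 h, Gr28a lost it without the first (0.094) or second (0.173) TraF or the first Control library (0.137), Gr5a without the first (0.362) or second (0.153) TraF or the second Control library (0.0644), and Or67b without any of the 4 (0.058 to 0.206). At 24 h Ir7c and Gr22f alone were called, against 1% of all tested genes.

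The second question was whether levels changed with hours in the warm. Or94a, known from larval olfactory neurons, was called in each genotype at 12 and 24 h. It had 0.844 and 0.829 CPM at 0 h, 5.51 and 6.06 CPM at 12 h and 4.46 and 5.94 CPM at 24 h in TraF testes, and 1.10 and 1.02 CPM, 5.35 and 5.59 CPM, and 6.62 and 8.36 CPM in Control testes. In both genotypes all later libraries lay above all 0 h libraries. In TraF testes it rose by a log2 fold change of 2.78 at 12 h (SE 0.25, edgeR quasi-likelihood adjusted p = 0.000842; 0.679% of all tested genes called) and of 2.63 at 24 h (SE 0.249, adjusted p = 0.000986; 2.52% called). In Control testes it rose by 2.37 at 12 h (SE 0.234, adjusted p = 0.003; 0.306% called) and by 2.81 at 24 h (SE 0.234, adjusted p = 0.000788; 2.69% called). The call in Control testes at 12 h was lost without the first 0 h library (0.0883) and in the fit of the compared groups alone (0.0528); the other 3 held in every alternative run. Or94a gave no count in any ovary. It lies in an intron of Nha2, which was not called in these comparisons. Or94b, which is known from the same larval neuron, had log2 fold changes of 2.33 in TraF (adjusted p = 0.069) and 2.05 in Control testes (adjusted p = 0.09) at 24 h and did not pass.

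**Figure D4:**
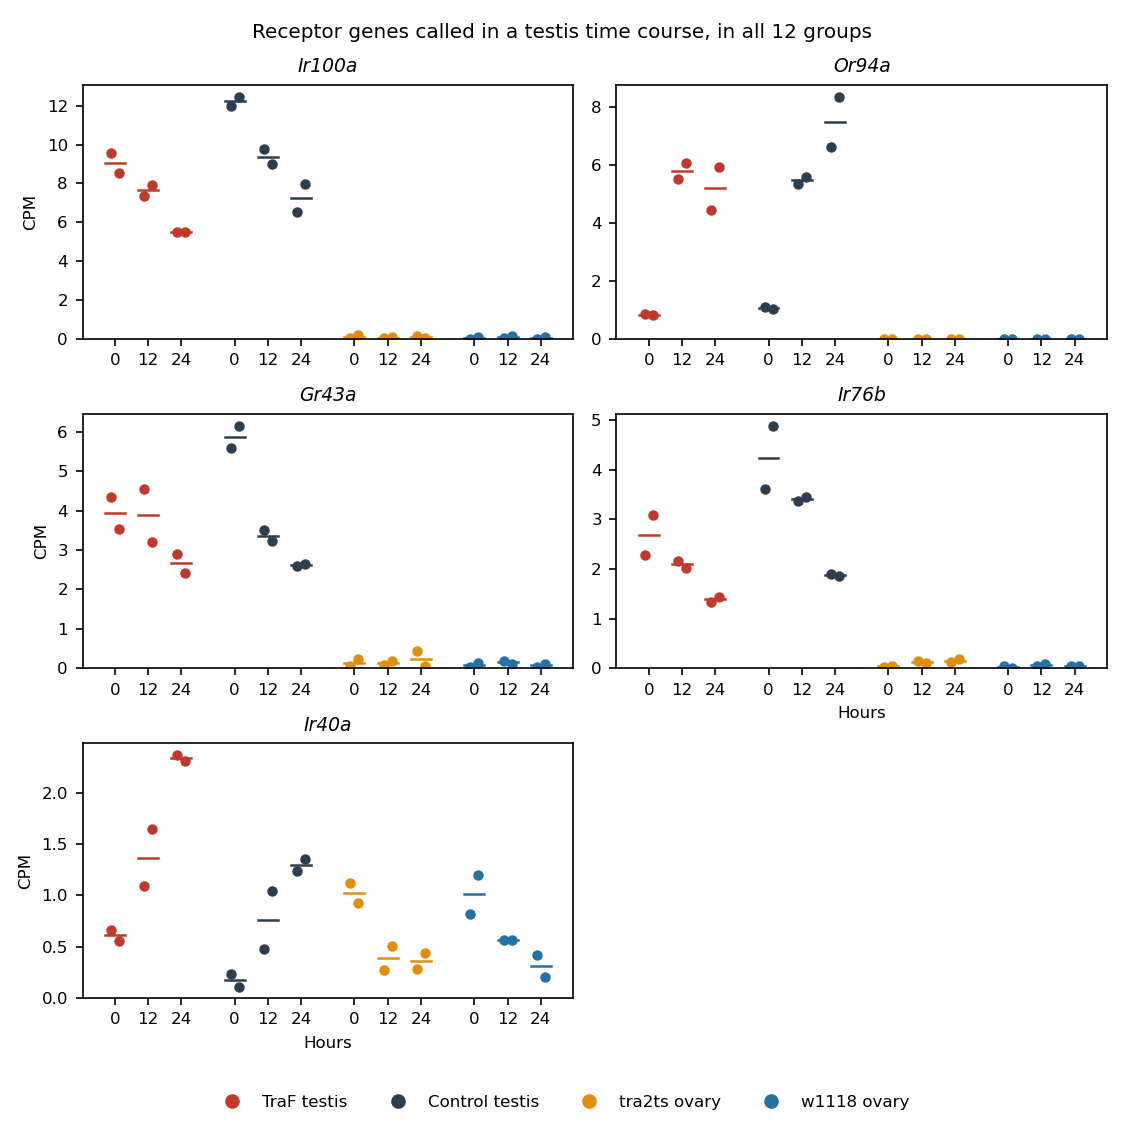
CPM of the 5 members called in a testis time course, by hours in the warm (0, 12 and 24 h), in every library of the 4 genotypes on linear axes from 0, with points for the 2 libraries and bars at their mean. Or94a lies at 0.829 to 1.10 CPM in every 0 h testis and at 4.46 CPM or more in every later one.

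At 12 h Or94a was the 1 member called in each genotype; at 24 h there were 3 in TraF and 5 in Control testes. Ir40a had 0.663 and 0.553 CPM at 0 h, 1.09 and 1.64 CPM at 12 h and 2.37 and 2.31 CPM at 24 h in TraF testes, and 0.236 and 0.105 CPM, 0.474 and 1.04 CPM, and 1.24 and 1.36 CPM in Control testes. Each later pair lay above its 0 h pair. At 24 h it rose by 1.94 in TraF (SE 0.417, edgeR quasi-likelihood adjusted p = 0.0381) and by 2.91 in Control testes (SE 0.496, adjusted p = 0.0153). The call in TraF was lost without any 1 of its 4 libraries (0.135 to 0.19) and without a count filter (0.0559), and that in Control without the first (0.0904) or second (0.126) library at 0 h or the second at 24 h (0.0732). Over the same hours 8 gut markers summed to 10.0 to 11.1, 24.7 to 29.5 and 36.8 to 45.1 CPM at 0, 12 and 24 h in TraF testes and to 33.2 to 33.3, 77.2 to 85.5 and 103 to 134 CPM in Control testes, with Amy-p called higher at both times and Amy-d at 24 h in each genotype. Most of these sums came from Amy-p, Amy-d and lab. The other listed genes, alphaTry, betaTry, Jon25Bi, Jon99Ci and Jon65Aiv, had medians of at most 0.149 CPM over the 12 testes. Whether the Amy-p and Amy-d reads came from gut cells, and their part in the rises of Or94a and Ir40a, was not tested.

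The taste receptor Gr43a, the co-receptor Ir76b and Ir100a were lower at 24 h. Ir100a had 9.58 and 8.56 CPM at 0 h, 7.35 and 7.93 CPM at 12 h and 5.48 and 5.51 CPM at 24 h in TraF testes, and 12.0 and 12.5 CPM, 9.76 and 9.0 CPM, and 6.51 and 7.96 CPM in Control testes. At 24 h it fell by 0.72 in TraF (SE 0.159, edgeR quasi-likelihood adjusted p = 0.0437) and by 0.76 in Control testes (SE 0.157, adjusted p = 0.0302). In Control testes the fructose receptor Gr43a had 2.59 and 2.65 CPM at 24 h against 5.58 and 6.15 CPM at 0 h, and fell by 1.16 (SE 0.234, adjusted p = 0.0287). Ir76b had 1.90 and 1.86 CPM at 24 h against 3.62 and 4.88 CPM at 0 h in Control testes, and fell by 1.17 (SE 0.248, adjusted p = 0.033). In all of these the pairs do not overlap. Each of these calls was lost without any 1 of the 4 libraries compared, at 0.12 to 0.215 for Ir100a in TraF, 0.0876 to 0.2 for Ir100a, 0.117 to 0.166 for Gr43a and 0.0925 to 0.242 for Ir76b in Control testes. They were also lost in the fit of the compared groups alone (Ir100a 0.0541 in TraF and 0.0982 in Control testes, Gr43a 0.0618, Ir76b 0.101), and Ir100a in TraF without a count filter (0.0534). Orco had 3.33 and 4.74 CPM at 24 h against 7.31 and 8.29 CPM at 0 h in Control testes and fell by 0.96 (SE 0.206, adjusted p = 0.0353), a call also lost without any 1 of the 4 (0.0661 to 0.226) and in the fit of the compared groups alone (0.108). Over the same hours the sums of the neuron markers were lower at 24 h. In Control testes they were 62.6 to 67.6 CPM at 24 h against 72.4 to 86.0 CPM at 0 h. In TraF testes they were 59.2 to 63.2 CPM at 24 h against 95.3 to 97.0 CPM at 0 h. None of the 11 was called, and brp and nSyb had the highest medians of the list in testes. The part of neurons in these falls was not tested.

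Whether the change with hours differed between genotypes was tested as TraF minus Control of the change from 0 h. No member was called by edgeR's quasi-likelihood test or by DESeq2 at 12 h or 24 h, beside 0.00828% of all tested genes at each. An unadjusted p under 0.05 was found for 3 and 4 members, beside 259 and 376 of all 12083 tested genes. At 12 h the lowest p-values were of Or67d, the receptor of the male pheromone cis-vaccenyl acetate, with a difference of log2 fold changes of -2.24, Gr22f with 0.74 and Gr43a with 0.78. At 24 h they were of Ir7c with 2.61 (SE 0.638), Gr22f with 0.89 and Gr59f with -1.23. Ir7c had 0.419 and 0.391 CPM at 24 h against 0 and 0.138 CPM at 0 h in TraF testes, where its own change did not pass either (log2 fold change 2.31, adjusted p = 0.0675). Or67d lay at or below 0.616 CPM in every testis library, so its difference rests on few counts. A test added after the data had been seen asked whether the change from 0 h differed between Control testes and w1118 ovaries. It called no member at 12 h by edgeR or DESeq2 (0.113% of all tested genes called) and 1, Ir40a, at 24 h (1.36% called). At 12 h 6 members had an unadjusted p under 0.05, beside 1020 of 12411 tested genes.

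In ovaries, 6 tra2ts were set against 6 w1118 libraries, and 13 members passed the low-count filter. The stocks differ and the 0 h libraries precede the shift, so over all times the loss of transformer 2 activity and a difference of stock cannot be told apart. Over all times 2 of the 13 were called, against 4.02% of all 8784 tested genes. Of the 2, 1 was higher and 1 lower, beside 2.58% and 1.43% of all tested genes. Of the 13, 3 had an unadjusted p under 0.05, beside 1240 of the 8784 genes. Ir76a, the amine receptor, had 1.08 and 1.11 CPM at 0 h, 4.39 and 3.16 CPM at 12 h and 4.21 and 3.33 CPM at 24 h in tra2ts ovaries, against 0.123 and 0.231 CPM, 0.114 and 0.324 CPM, and 0.280 and 0.0410 CPM in w1118 ovaries. The lowest tra2ts library lies above the highest w1118 library. The log2 fold change was 3.75 (SE 0.404, edgeR quasi-likelihood adjusted p = 0.000814), and the 428 counts in tra2ts against 26 in w1118 ovaries make a ratio of 15.6 (exact 95% interval for counting error 10.5 to 24.1). At 12 h the log2 fold change was 4.09 (SE 0.682, adjusted p = 0.0422; 0.387% of all tested genes called), lost without any 1 of the 4 libraries (0.161 to 0.349) and in the fit of the compared groups alone (0.0729). At 24 h it was 4.55 (SE 0.719, adjusted p = 0.0248; 0.535% called), lost without the second tra2ts (0.0502) or second w1118 (0.122) library and in the fit of the compared groups alone (0.376). At 0 h no member was called by edgeR (0.273% of all tested genes called). There 4 members had an unadjusted p under 0.05, beside 493 of 8784 genes. At that time DESeq2 called Ir76a, whose log2 fold change was 2.61 by edgeR (SE 0.704, adjusted p = 0.31).

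Ir51a, the annotated pseudogene, went the other way. It had 0.186 and 0.0927 CPM at 0 h, 0.0385 and 0 CPM at 12 h and 0.0405 and 0 CPM at 24 h in tra2ts ovaries, against 0.904 and 0.370 CPM, 0.946 and 0.405 CPM, and 0.700 and 0.737 CPM in w1118 ovaries. Every w1118 library was above every tra2ts library. The log2 fold change was -3.89 (SE 0.578, edgeR quasi-likelihood adjusted p = 0.0051), from 10 counts in tra2ts and 98 in w1118 ovaries. Ir76a and Ir51a kept their calls over all times under every alternative run. In testes Ir51a had been higher in TraF than in Control. Or85f, a receptor of the odour of parasitoid wasps, was next and was not called (log2 fold change 1.4, adjusted p = 0.0645), with 0.269 to 0.588 CPM in tra2ts and 0.0924 to 0.246 CPM in w1118 ovaries.

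Of the members with most ovary reads, Ir7c, Or43b, Gr61a and Ir7b were not called between genotypes. Ir7c had 33.1 and 21.6 CPM at 0 h, 48.8 and 47.5 CPM at 12 h and 58.4 and 26.4 CPM at 24 h in tra2ts ovaries, against 53.7 and 28.6 CPM, 71.6 and 40.1 CPM, and 44.9 and 38.5 CPM in w1118 ovaries. At each time the libraries of at least 1 genotype lay further apart than the genotype means. Or43b had 6.47, 8.21 and 9.30 CPM in tra2ts and 5.88, 7.80 and 11.1 CPM in w1118 ovaries, and Gr61a 1.64, 2.25 and 3.40 CPM in tra2ts and 1.86, 2.52 and 3.10 CPM in w1118 ovaries. These ranges overlap. Ir7b, the neighbour of Ir7c in family name, had 0.588, 0.940 and 2.06 CPM in tra2ts and 0.616, 0.864 and 1.72 CPM in w1118 ovaries.

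**Figure D5:**
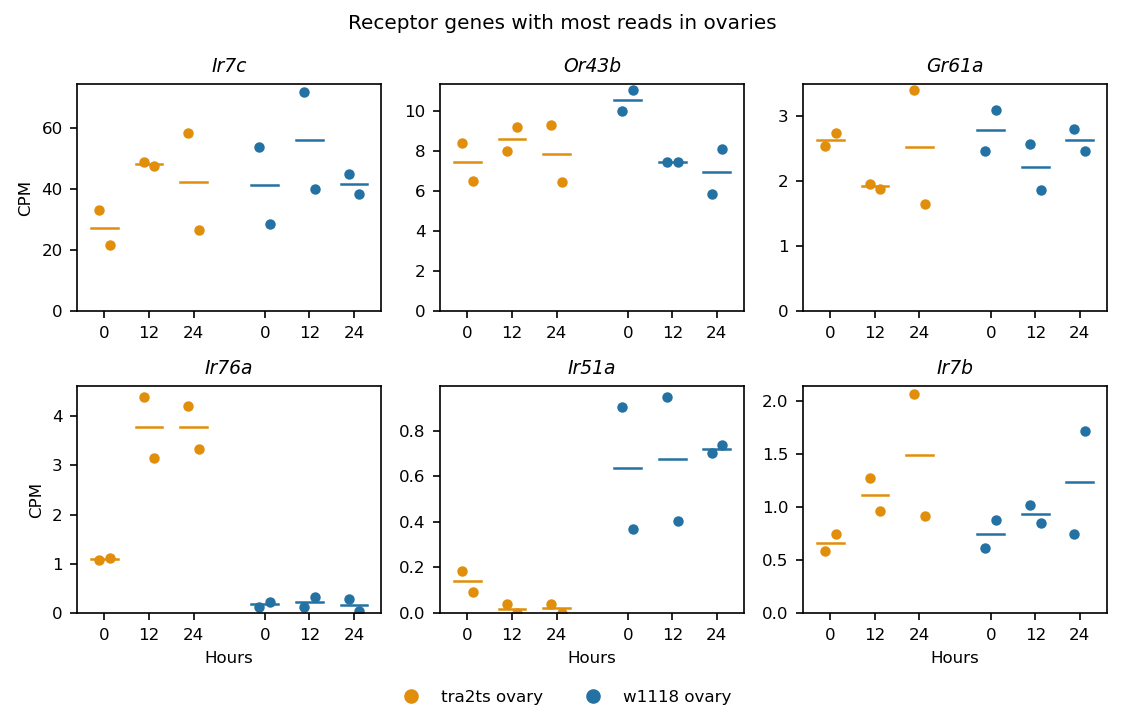
CPM of 6 members with most ovary reads or called in ovary, in each ovary library on linear axes from 0, tra2ts left of w1118, with points for the 2 libraries at 0, 12 and 24 h and bars at their mean. Ir76a lies at 1.08 to 4.39 CPM in tra2ts and at most 0.324 CPM in w1118 ovaries, while the ranges of Ir7c, Or43b and Gr61a overlap.

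No member was called with hours in ovary by edgeR's quasi-likelihood test or by DESeq2. Of all tested genes 0.0228% and 0.33% were called at 12 and 24 h in tra2ts ovaries, and 0.0797% and 0.273% in w1118 ovaries. Without adjustment, 3 and 4 of the 13 members had p under 0.05 in tra2ts ovaries, beside 929 and 904 of 8784 genes. In w1118 ovaries none and 1 did, beside 803 and 1002 genes. The difference in the change with hours between tra2ts and w1118 ovaries was called for no member by either tool. Of all tested genes 0% were called at each time. At 12 and 24 h none and 1 of the members had an unadjusted p under 0.05, beside 58 and 117 of all tested genes. The lowest p-values were of Ir51a with -2.70, Or43b with 0.70 and Gr39a with 2.50 at 12 h, and of Gr98b with -9.78, Ir76a with 1.94 and Ir51a with -2.64 at 24 h. The Gr98b value rests on 0.650 and 1.07 CPM in tra2ts ovaries at 0 h, with at most 0.078 CPM in any other ovary.

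Markers of other cells moved with genotype in ovaries and are set beside Ir76a. Of 9 muscle markers 8 were tested and 7 were higher in tra2ts ovaries; up, a troponin gene, was higher by 1.20 on the log2 scale and held in every alternative run, and the other 6 lost the call without at least 1 library. The list summed to 554 to 1891 CPM in tra2ts and 233 to 777 CPM in w1118 ovaries with no marker at 0 throughout. Of 6 hemocyte markers 5 were tested and 3 were higher (NimC1 by 5.24 and Pxn by 2.09, which held in every alternative run, and eater, which lost the call without some libraries), with sums of 49.6 to 100 CPM in tra2ts and 48.1 to 84.5 CPM in w1118 ovaries. None of the 5 tested neuron markers was called. The fat body markers summed to 132 to 189 CPM in tra2ts and 28.0 to 59.7 CPM in w1118 ovaries at 0 h. They overlapped between genotypes at 12 and 24 h. Much of this sum was 1 gene, Cyp4g1, at 4.10 to 147.5 CPM over all ovaries, whereas Fbp1 and Fbp2 had medians of 0 CPM there. Of all tested genes 2.58% were higher in tra2ts ovaries. The part of these cells in the level of Ir76a was not tested.

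Genes that act beside the receptors were read from lists of odorant binding proteins, ppk channels, CheA and CheB proteins and signal transduction genes. In testis 19 of 51 odorant binding protein genes, 11 of 28 ppk genes, 2 of 20 CheA and CheB genes and 11 of 15 transduction genes were on, and in ovary 6, 3, none and 6. Between TraF and Control testes over all times, 1 of 25 tested odorant binding protein genes was higher and 5 were lower, beside 2.3% and 3.06% of all tested genes, with a median log2 fold change of -0.15 against -0.01 over all genes: Obp46a had 1.01 (SE 0.183, adjusted p = 0.00803), Obp58c -2.98 (SE 0.249, adjusted p = 4.26e-05) and Obp56c -3.10 (SE 0.213, adjusted p = 1.05e-05) by edgeR's quasi-likelihood test. Of 17 tested ppk genes ppk6 was higher (0.64) and ppk, a channel of mechanical and pain sensing neurons, lower (-1.32, SE 0.186, adjusted p = 0.00153). Of 13 tested transduction genes 1 was higher, TrpA1, a channel of heat and irritants (1.22, SE 0.215, adjusted p = 0.00643). Of 13 listed genes of the glutamate receptor family from which the ionotropic receptors descend, 12 were on in testis. Among them GluRIIB was lower in TraF testes by -4.26 on the log2 scale (SE 0.315, edgeR quasi-likelihood BH-adjusted p = 1.7e-05), a value of this gene alone. The calls of Obp46a, Obp58c, Obp56c, ppk6, ppk, TrpA1 and GluRIIB held in every alternative run. Beside these, 2 of 5 tested gut markers, Amy-p (-2.13) and Amy-d (-2.36), were lower in TraF testes. The 8 gut markers, mostly Amy-p, Amy-d and lab, summed to 10.0 to 45.1 CPM in TraF against 33.2 to 134 CPM in Control testes. The 8 genes listed as markers of male somatic cells summed to 186 to 230 CPM in TraF and 153 to 182 CPM in Control testes. Of these, 1, Fas3, was called higher over all times (0.63). In ovaries the same 8 genes summed to 532 to 800 CPM and 7 were on, so they are not particular to male cells. The 7 fat body markers summed to 201 to 239 CPM in TraF and 103 to 105 CPM in Control testes at 0 h. They overlapped between genotypes at 24 h, with 1, Apoltp, called higher over all times (1.16). Of the 7, Cyp4g1 alone ran from 0.821 to 501 CPM over all testes. Which cells gave these reads, and their part in the receptor levels, was not tested.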

How the data were processed

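The submitters sequenced poly(A) RNA (single reads of 76 bases) and, per the submitters' processing notes, aligned it with TopHat 1.4.1 to dm3 and counted it with HTSeq; the strand setting and the annotation release are not given in the sources used here. The deposited files hold raw counts per FlyBase gene and library, with 5 summary lines (2.95% to 6.67% of a library), which were left out. Of 15406 gene identifiers 14732 matched a symbol in the reference table. Arms, neighbours, overlaps and exon lengths came from Ensembl annotation 115, a later build, so no coordinates or sequences are given.

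Members and gene lists were chosen with earlier results of these data known. Counts were fitted with edgeR 4.0.16 in R 4.3.3 (TMM scaling, filterByExpr, quasi-likelihood test, group means, Benjamini-Hochberg threshold 0.05) in separate fits of 12 testis, 12 ovary and all 24 libraries; SE is the log2 fold change divided by the root of F. Called members were named, or the 5 largest rises and falls beyond 10; for genotype and switch comparisons with under 3 calls the 3 lowest p-values; the 12 highest in testis and 6 in ovary; Ir7c, the co-receptors and the carbon dioxide pair. Exact intervals and floors of 3 counts cover counting error only. Alternatives were DESeq2 1.42.0, other scalings, no filter, a replicate block, the compared groups alone and the omission of each library. Replicates, separate dissections per the labels, differed beyond counting noise in every group. The code was tested on simulated data.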

Additional observations from a re-analysis of the deposited data

Results flagged for a closer look

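The change of Ir40a with hours in the warm differed between the control genotypes of the 2 tissues by a test of the difference itself. Control testes had 1.24 and 1.36 CPM at 24 h against 0.236 and 0.105 CPM at 0 h, whereas w1118 ovaries had 0.420 and 0.205 CPM at 24 h against 0.821 and 1.20 CPM at 0 h. The change in w1118 ovaries was not itself called (log2 fold change -1.69, adjusted p = 0.267). The change in testis minus the change in ovary was 4.61 on the log2 scale (SE 0.71, edgeR quasi-likelihood adjusted p = 0.00517), beside 1.36% of all 12411 tested genes called. The comparison was added after the data had been seen, and tissue, sex and stock differ together in it and cannot be told apart. It held in all 8 omissions of 1 of the compared libraries (0.00389 to 0.042) and was lost in a fit of the compared groups alone (0.0845).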

How the results depend on the processing

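Under the alternatives 227 recomputed counts stayed within 1.5 times the value reported and 40 did not. Of the recomputed values of named genes, 648 kept their status, called or not called, and 113 lost a call. None reversed direction. The 648 include genes named for their low p-values that were called in neither fit. Outside these values, Or43b between testis and ovary, which was not called, had a log2 fold change of 0.08 under the relative log expression scaling and by DESeq2, against -0.24. Members called between testis and ovary numbered 125 without a count filter, against 74. Leaving out 1 library at a time, TraF against Control gave 6 to 11 called members over all times, 2 at 0 h, 1 to 4 at 12 h and 1 to 2 at 24 h; TraF at 24 h against 0 h gave 1; Control gave 0 to 3 at 12 h and 1 to 2 at 24 h; tra2ts against w1118 gave 0 at 12 h and 0 to 1 at 24 h. In fits of the compared groups alone, TraF against Control gave 1 at 12 h, TraF gave 2 at 12 h, Control gave 0 at 12 h and 2 at 24 h, tra2ts against w1118 gave 0 at 12 h and at 24 h, tra2ts at 12 h against 0 h gave 2 (Gr98b and Ir76a, against 0), and the difference of Ir40a between tissues gave 0. Without a count filter TraF at 24 h gave 1, and by DESeq2 tra2ts against w1118 at 0 h gave 1. Members on in ovary numbered 12 at 0.5 CPM and 7 with either replicate number left out, against 4; in testis they numbered 32 at 1 CPM per kb, 30 at 2 CPM and 64 at 0.5 CPM, against 45.

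With the replicate number as a block, TraF against Control gave 11 over all times, 4 at 0 h and 3 at 24 h (both with Ir51a) and 5 at 12 h, testis against ovary gave 70, without Ir51a (adjusted p = 0.677), and TraF at 24 h gave 4, Or85c among them; tra2ts against w1118 at 12 h gave 0, Ir76a having an adjusted p of 0.0672. Deviations of same-numbered libraries correlated at -0.001 to 0.394 in testis and -0.492 to 0.432 in ovary, and the numbers were not taken as pairs. In testis all but the lowest correlation were above 0, whereas the all-times tests took the libraries of a genotype as independent. Gr59a had 1, 0 and 0 counts in the first Control libraries at 0, 12 and 24 h and 39, 43 and 22 in the second. Levels under about 0.1 CPM rest on a few counts.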
